A study of Mus musculus with 4 samples.

Results

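Selp, Lyve1 and Cdh5 are genes of the cells that line blood and lymph vessels. They were taken by symbol from the authors' table of genes that differed between colitic colons of 2 genotypes, and all 3 were found among its 4121 genes. They had been picked with their values known, from another endothelial list than those below, so the size of their differences is given as a description. The Elf4-KO group held 2 samples from mice with a knockout of Elf4, which encodes an Ets-type transcription factor. The WT group held 2 samples from wild-type mice. All mice were C57BL/6 and 8 weeks old, and all received 3% DSS (dextran sulfate sodium) as a treatment that damages the gut lining and inflames the colon. Inflamed distal colon was taken at day 6 and sequenced as RNA. No untreated colon is part of the comparison. The labels state neither how the knockout was made nor whether each sample is a separate animal.

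Endothelial cells hold the vessel wall closed with junctions and, in inflamed tissue, display adhesion molecules that slow and stop passing leukocytes. Selp encodes P-selectin, which is stored in granules of endothelial cells and platelets and is brought to the surface within minutes of activation, where leukocytes roll on it. Lyve1 encodes a hyaluronan receptor of lymphatic endothelium that is also made by some tissue macrophages. Cdh5 encodes VE-cadherin, the adhesion protein of endothelial adherens junctions. In the gut wall, blood vessels deliver leukocytes to injured mucosa, and lymphatic vessels drain fluid, cells and absorbed fat. Many genes of the endothelium are known to depend on Ets factors such as Erg and Fli1.

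Promoter sequence is shown for Selp because it is a leukocyte adhesion gene in tissue with a knockout of an Ets factor gene, and the core letters read by this family, GGAA, can be marked in it. Sele, its neighbour on the chromosome, and Flt1, the largest fold among endothelial identity genes below, are set beside it. The RefSeq table (GRCm38.p6) gave a promoter for 1 of the 3 genes, Selp, and for 52 of 77 listed genes of the endothelial lists described below. Each window covers 250 bases before and 50 bases from the gene start. Capitals mark GGAA, or TTCC where the match is on the other strand. The windows are chr1:164115014-164115313 (plus strand) for Selp, chr1:164047984-164048283 (plus strand) for Sele and chr5:147725962-147726261 (minus strand) for Flt1.
Selp: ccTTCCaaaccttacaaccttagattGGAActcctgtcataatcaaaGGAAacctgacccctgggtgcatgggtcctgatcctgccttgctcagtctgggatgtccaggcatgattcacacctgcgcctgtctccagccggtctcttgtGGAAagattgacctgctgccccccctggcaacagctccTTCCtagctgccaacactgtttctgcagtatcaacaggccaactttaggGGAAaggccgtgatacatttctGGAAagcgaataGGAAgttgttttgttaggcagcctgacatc
Sele: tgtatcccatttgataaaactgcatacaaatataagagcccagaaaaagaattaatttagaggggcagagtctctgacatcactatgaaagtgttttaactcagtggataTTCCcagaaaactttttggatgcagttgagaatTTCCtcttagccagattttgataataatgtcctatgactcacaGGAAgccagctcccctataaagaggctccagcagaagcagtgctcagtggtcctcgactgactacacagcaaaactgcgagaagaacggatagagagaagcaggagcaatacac
Flt1: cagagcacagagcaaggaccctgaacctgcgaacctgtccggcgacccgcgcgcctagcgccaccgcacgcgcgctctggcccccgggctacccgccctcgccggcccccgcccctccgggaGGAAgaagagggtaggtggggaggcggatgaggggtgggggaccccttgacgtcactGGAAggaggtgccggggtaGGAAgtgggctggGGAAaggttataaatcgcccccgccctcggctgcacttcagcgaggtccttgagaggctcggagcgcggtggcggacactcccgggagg
The Selp window held 8 matches to GGAA on both strands together, Sele 3 and Flt1 4. Over all 32851 promoter windows of this length the median was 3 matches, and 96.0% held at least 1. At least as many matches as in Selp were found in 3.72% of windows. The longer form GGAAGT, which contains GGAA, occurred once each in Selp and Flt1 and was not found in the Sele window, and 23.8% of all windows held it. The Selp match began after the gene start, at base 21, and the Flt1 match began 52 bases before its gene start. A match describes letters in the window and is not evidence of a bound site.

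The deposited table gives FPKM (fragment counts divided by transcript length and by the mapped total) as 1 value per genotype. No spread between samples, SD or interval can therefore be given for any value, and the depth per sample is unknown. The table holds genes that passed the authors' call, so each gene in it counts as called, and rose and fell below rest on the authors' test. The smallest fold in it, larger over smaller value, was 1.99999. Medians and smallest rises below are therefore those of genes that differed by at least this much. A gene that was not listed may still have differed by a smaller fold, and is not shown to be unchanged. Of the 4121 genes, 1980 (48.0%) rose in Elf4-KO colon and 2141 (52.0%) fell. Their log2 ratio, taken after adding 1 to both values, had a median of -0.76. Elf4 itself was at 3.51 FPKM in Elf4-KO colon and at 16.4 FPKM in WT colon, so fragments were still assigned to the gene in the knockout. The labels do not say which part of it was targeted. For genes named without a q, the authors' deposited table gives its lowest value, 0.000372. This value is shared by 2233 of the 4121 genes, so it does not set a gene apart.

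All 3 genes rose, against a background of 48.0% higher among listed genes. Selp (ENSMUSG00000026580) was at 60.5 FPKM in Elf4-KO colon and at 10.95 FPKM in WT colon, a 5.52-fold difference. Lyve1 (ENSMUSG00000030787) was at 96.6 FPKM in Elf4-KO colon and at 22.2 FPKM in WT colon, a 4.34-fold difference. Cdh5 (ENSMUSG00000031871) was at 39.4 FPKM in Elf4-KO colon and at 10.1 FPKM in WT colon, a 3.90-fold difference. Lyve1 had the highest level of the 3 in both genotypes and Cdh5 the lowest, while Selp had the largest fold. Ranked by fold among the 1980 genes that rose, Selp stood at position 292, Lyve1 at 466 and Cdh5 at 568, and the median fold of those genes was 2.91. Selp and Lyve1 lay above a 4-fold limit that 12.9% of all listed genes passed upward, and Cdh5 lay just under it. FPKM is a share of the mapped total. In whole tissue, changes in the number of endothelial cells, in RNA per cell and in other cells' RNA share cannot be told apart.

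**Figure D1:**
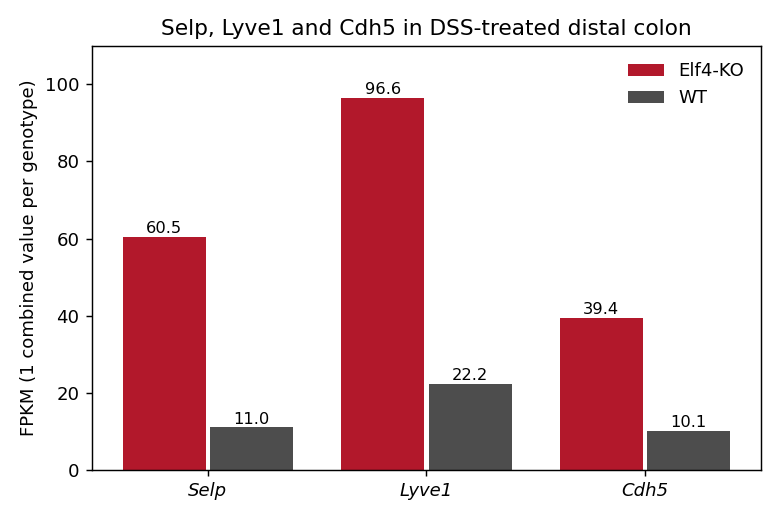
Bars give the authors' combined FPKM of Selp, Lyve1 and Cdh5, with Elf4-KO colon left of WT colon for each gene and no error bars because the table holds 1 value per genotype. Elf4-KO values run from 39.4 FPKM for Cdh5 to 96.6 FPKM for Lyve1, and WT values from 10.1 FPKM for Cdh5 to 22.2 FPKM for Lyve1.

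The levels of the 3 genes relative to each other can be read per length. Lyve1 was at 2.45 times the FPKM of Cdh5 in Elf4-KO colon and at 2.21 times in WT colon. Selp was at 1.54 times the FPKM of Cdh5 in Elf4-KO colon and at 1.09 times in WT colon. Pecam1, an adhesion gene of all endothelium, was at 94.6 FPKM in Elf4-KO colon and at 35.5 FPKM in WT colon, a 2.66-fold rise. Set against Pecam1, Selp was at a ratio of 0.639 in Elf4-KO colon and 0.308 in WT colon. The ratio of Lyve1 to Pecam1 was 1.02 in Elf4-KO colon and 0.625 in WT colon, and that of Cdh5 to Pecam1 was 0.416 in Elf4-KO colon and 0.284 in WT colon. Each of the 3 genes thus had a larger fold than Pecam1. These are differences in FPKM with no replicate check. Whether the Pecam1 value comes from endothelium alone was not tested.

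The locus that the table gives for Selp is wider than the gene. It spans chr1:164115264-164220277 on GRCm38, 105014 bases, while GENCODE M21 annotates Selp at chr1:164115264-164150026 on the plus strand, 34763 bases. The wider span also covers F5, the coagulation factor V gene on the same strand, and 3 further annotated genes, among them Gm16548 and Gm16587 on the opposite strand. None of these neighbours is listed, and whether their fragments entered the Selp value was not tested. The table locus of Cdh5, chr8:104088916-104144511, starts before the annotated gene at chr8:104101625-104144511 on the plus strand and takes in the antisense gene Gm29682. The Lyve1 locus, chr7:110850607-110863239 on the minus strand, equals the annotated gene and overlaps no other. The labels do not say whether the libraries were stranded, so reads of Cdh5 and Gm29682 cannot be told apart where they overlap.

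Selp lies close to Sele, and both fit within 102 kb of chromosome 1. Sele encodes E-selectin, which endothelium makes after cytokine stimulation, and it rose as well. Sele was at 5.49 FPKM in Elf4-KO colon and at 1.64 FPKM in WT colon, a 3.36-fold rise (q = 0.000694 in the authors' deposited table). The WT level of Sele was low. Selp had the larger fold of both genes, and its level was 11.02 times that of Sele in Elf4-KO colon and 6.70 times in WT colon.

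Of 14 genes for leukocyte adhesion and capture, Selp aside, 5 were listed and all 5 rose, beside 48.0% higher among all listed genes. The 5 had a median log2 ratio of 1.68. Besides Sele, the integrin gene Itgam, whose product on myeloid cells binds endothelial ligands, was at 90.5 FPKM in Elf4-KO colon and at 14.1 FPKM in WT colon. Its endothelial ligand gene Icam1 was at 62.6 FPKM in Elf4-KO colon and at 28.2 FPKM in WT colon, and its table locus also covers Icam4 and Icam5. Ackr1, a chemokine-binding receptor gene of venules, was at 85.8 FPKM in Elf4-KO colon and at 23.7 FPKM in WT colon (q = 0.00852 in the authors' deposited table). The table locus of Ackr1 was 71.9 times as long as the annotated gene and overlapped 2 other listed genes, Cadm3 and Aim2, so its value is uncertain. Vcam1, Madcam1, Glycam1 and Selplg, the gene of the main leukocyte ligand of P-selectin, were among the 9 genes of this list that were not listed.

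The listed genes of enzymes that build selectin ligands moved the other way. Of 10 such genes, 5 were listed and all 5 fell, beside 52.0% lower among all listed genes, with a median log2 ratio of -1.61. Chst4, a sulfotransferase gene for selectin ligands, was at 4.95 FPKM in Elf4-KO colon and at 100.2 FPKM in WT colon. The sialyltransferase gene St3gal4 was at 31.1 FPKM in Elf4-KO colon and at 275 FPKM in WT colon, and St3gal6 was at 19.9 FPKM in Elf4-KO colon and at 62.7 FPKM in WT colon. The fucosyltransferase gene Fut4 was at 5.24 FPKM in Elf4-KO colon and at 15.4 FPKM in WT colon, and Gcnt1, which starts branched O-glycans, was at 9.64 FPKM in Elf4-KO colon and at 25.3 FPKM in WT colon. In the same tissue all 10 genes of an epithelial marker list fell, with a summed 729.8 FPKM in Elf4-KO colon and 9487 FPKM in WT colon. The part of the epithelial fall in these values was not tested. The table loci of St3gal4 and St3gal6 also cover neighbouring genes. Fut7, B4galt1, Tpst1, Tpst2 and Chst2 were not listed.

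The listed genes of proteins stored with P-selectin or acting in clotting at the vessel wall rose. Of 14 granule and coagulation genes, 10 were listed and all 10 rose, beside 48.0% higher among all listed genes. The 10 had a median log2 ratio of 1.48. Vwf, whose product fills the same endothelial granules as P-selectin, was at 20.8 FPKM in Elf4-KO colon and at 7.16 FPKM in WT colon, a 2.90-fold rise (q = 0.000998 in the authors' deposited table). The plasminogen activator genes also rose, with Plau at 72.7 FPKM in Elf4-KO colon and 15.4 FPKM in WT colon, and Plat at 45.4 FPKM in Elf4-KO colon and 10.6 FPKM in WT colon. The urokinase receptor gene Plaur was at 93.6 FPKM in Elf4-KO colon and at 29.9 FPKM in WT colon. The anticoagulant genes Thbd, Procr, Tfpi and Pros1 rose between 2.23-fold for Thbd and 2.99-fold for Tfpi. Edn1, the vasoconstrictor endothelin gene, rose 2.91-fold. Selp thus had a larger fold than 9 of these 10 genes. F3, F8, Cd63 and Proc were not listed.

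Of 28 genes of endothelial identity, junctions and receptors, 21 were listed. Of these 20 rose and 1 fell, beside 48.0% higher among all listed genes. The 21 had a median log2 ratio of 1.31. The endothelial markers Pecam1, Cldn5, Esam, Emcn, Kdr and Tie1 were among those that rose, while others such as Tek, Icam2 and Plvap were not listed. Flt1, a receptor for VEGF, was at 25.1 FPKM in Elf4-KO colon and at 4.79 FPKM in WT colon, a 5.25-fold rise and the largest fold of the list. Emcn, a sialomucin gene of capillaries and veins, was at 39.7 FPKM in Elf4-KO colon and at 8.12 FPKM in WT colon. Cd93, a glycoprotein gene of endothelial and myeloid cells, was at 34.8 FPKM in Elf4-KO colon and at 7.84 FPKM in WT colon. Of the 20 genes that rose, only these 3, Flt1, Emcn and Cd93, had a larger fold than Cdh5.

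The smallest rises of that list were those of Nos3 and Kdr. Nos3, the endothelial nitric oxide synthase gene, was at 5.77 FPKM in Elf4-KO colon and at 2.86 FPKM in WT colon (q = 0.00992 in the authors' deposited table). Kdr, the main signalling receptor for VEGF in blood vessels, was at 16.04 FPKM in Elf4-KO colon and at 7.79 FPKM in WT colon (q = 0.000998 in the authors' deposited table). The exception to the rise was Aplnr, the apelin receptor gene, at 1.34 FPKM in Elf4-KO colon and at 2.96 FPKM in WT colon (q = 0.0231 in the authors' deposited table). Its level was low in both genotypes. Genes of tight junctions and of the junction that VE-cadherin organises had folds of 2.16 for Cldn5, 2.37 for Esam, 2.52 for Jam3, 3.25 for Jam2 and 3.23 for Ptprb, the phosphatase that associates with VE-cadherin. The q was 0.00335 for Cldn5 in the authors' deposited table. The receptor genes Robo4, S1pr1, Adgrl4, Calcrl, Clec14a, Eng and Tie1 rose between 2.18-fold for Tie1 and 3.90-fold for Robo4, with q of 0.00211 for Calcrl and 0.000694 for Tie1 in the authors' deposited table. The surface glycoprotein gene Cd34 rose 2.12-fold and Mcam 2.55-fold, with q of 0.00156 for Cd34 in the authors' deposited table. The table loci of Cd34, Mcam and Eng were at least 1.5 times as long as the genes and overlapped other annotated genes. Icam2, Tek, Egfl7, Ecscr, Mmrn2, Plvap and Ramp2 were not listed.

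**Figure D2:**
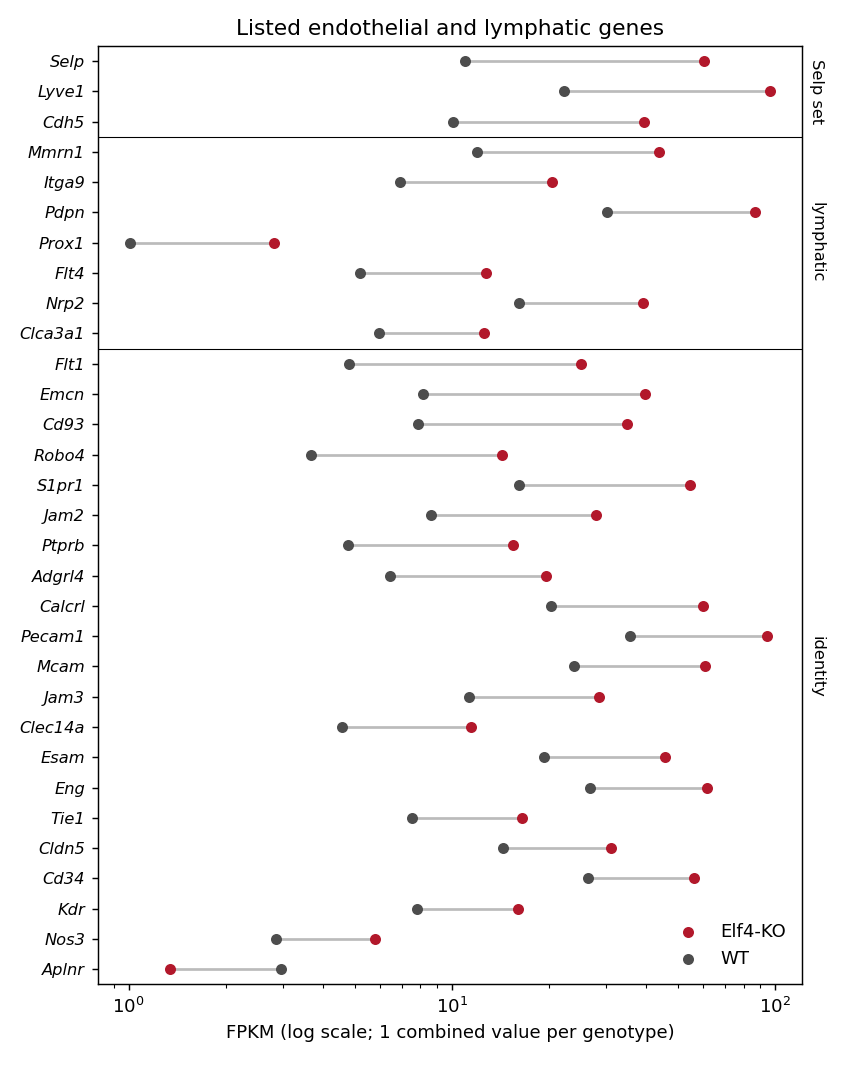
Points give FPKM on a log scale for each listed gene, red for Elf4-KO colon and grey for WT colon, joined by a line, with Selp, Lyve1 and Cdh5 at the top, then 7 lymphatic genes and 21 endothelial identity genes, each block in order of fold. The Elf4-KO point lies right of the WT point for each gene but Aplnr, at 1.34 FPKM in Elf4-KO colon and 2.96 FPKM in WT colon.

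Lymphatic genes rose with Lyve1. Of 15 such genes, 7 were listed and all 7 rose, beside 48.0% higher among all listed genes. The 7 had a median log2 ratio of 1.23. Prox1, the transcription factor that sets lymphatic identity, was at 2.82 FPKM in Elf4-KO colon and at 1.008 FPKM in WT colon, a 2.80-fold rise. The level of Prox1 was low in both genotypes. Flt4, the lymphatic receptor for VEGF family ligands, was at 12.7 FPKM in Elf4-KO colon and at 5.21 FPKM in WT colon. Mmrn1, a secreted protein gene of lymphatic endothelium and platelets, had the largest fold of the list at 3.67, with 43.8 FPKM in Elf4-KO colon and 11.9 FPKM in WT colon. Lyve1 had a larger fold than each of these 7 genes. Pdpn, the podoplanin gene of lymphatic endothelium and fibroblasts, was at 86.8 FPKM in Elf4-KO colon and at 30.2 FPKM in WT colon. Nrp2 rose 2.43-fold, Itga9 2.95-fold and Clca3a1 2.11-fold, with q of 0.00792 for Itga9 and 0.00184 for Clca3a1 in the authors' deposited table. The level of Lyve1 was 34.2 times that of Prox1 in Elf4-KO colon and 22.1 times in WT colon. The table locus of Prox1 also covers the antisense gene Prox1os. Ccl21a, Reln, Stab1, Stab2, Vegfc, Foxc2, Ackr4 and Piezo2 were not listed.

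Lyve1 binds hyaluronan, a matrix polysaccharide, and few other genes of its binding and turnover were listed. Of 15 such genes, 3 were listed, 2 higher and 1 lower, beside 48.0% higher among all listed genes. Cemip, needed for breakdown of hyaluronan, was at 139 FPKM in Elf4-KO colon and at 13.3 FPKM in WT colon, a 10.4-fold rise. Cd44, the hyaluronan receptor gene of leukocytes and many other cells, was at 74.0 FPKM in Elf4-KO colon and at 25.0 FPKM in WT colon. The level of Lyve1 was 1.30 times that of Cd44 in Elf4-KO colon and 0.889 times in WT colon. Hmmr, whose product also acts on the mitotic spindle, was at 1.38 FPKM in Elf4-KO colon and at 4.34 FPKM in WT colon. The hyaluronan synthase genes Has1, Has2 and Has3 were not listed.

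Ligands that act on vessels rose. Of 11 genes of VEGF, angiopoietin and related ligands, 8 were listed and all 8 rose, beside 48.0% higher among all listed genes. The 8 had a median log2 ratio of 1.84. Angpt2, which endothelium releases to destabilise vessels, was at 22.8 FPKM in Elf4-KO colon and at 1.48 FPKM in WT colon, a 15.4-fold rise. Angpt1, which stabilises vessels, was at 8.63 FPKM in Elf4-KO colon and at 1.71 FPKM in WT colon. The ratio of Angpt2 to Angpt1 was 2.64 in Elf4-KO colon and 0.865 in WT colon. Pgf, a ligand of Flt1, was at 10.8 FPKM in Elf4-KO colon and at 2.14 FPKM in WT colon. Vegfd, a ligand of Flt4, was at 5.71 FPKM in Elf4-KO colon and at 1.54 FPKM in WT colon (q = 0.000694 in the authors' deposited table). Apln, the apelin gene, was at 6.14 FPKM in Elf4-KO colon and at 1.39 FPKM in WT colon, opposite in direction to its receptor gene Aplnr. Adm, the adrenomedullin gene, rose 4.59-fold, Angptl4 3.76-fold and Angptl2 2.91-fold. The WT levels of Angpt2, Angpt1, Pgf, Vegfd and Apln were low, at most 2.14 FPKM, so their folds rest on small WT values. Vegfa and Vegfb were not listed. The table loci of Angpt2, Adm and Angptl2 were between 4.06 and 7.52 times as long as the genes and took in neighbours, so these values are less certain.

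**Figure D3:**
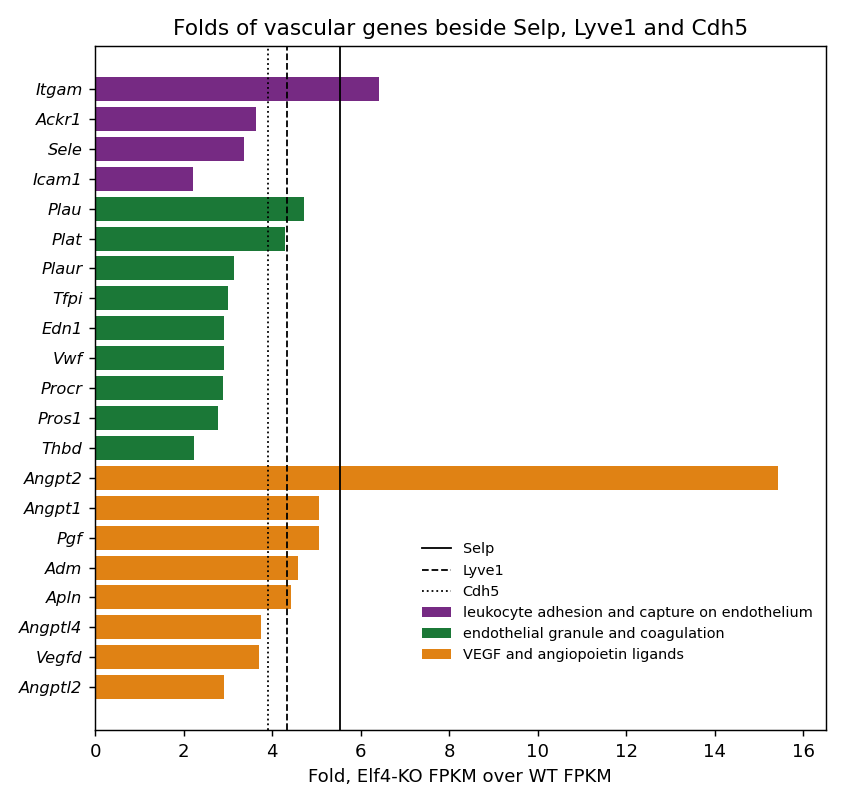
Bars give the fold of Elf4-KO FPKM over WT FPKM for genes named in the text from the lists of leukocyte adhesion, of granules and coagulation and of vessel ligands, and vertical lines mark the folds of Selp (5.52), Lyve1 (4.34) and Cdh5 (3.90). Among the genes drawn, Itgam and Angpt2 pass the Selp line.

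The lists of vessel transcription factors and Notch genes had smaller medians than the ligand list. Of 19 transcription factor genes, 6 were listed, 5 higher and 1 lower, beside 48.0% higher among all listed genes. The 6 had a median log2 ratio of 1.07. Erg, an Ets factor of endothelium that binds the Cdh5 gene, was at 16.03 FPKM in Elf4-KO colon and at 4.93 FPKM in WT colon, a 3.25-fold rise. Klf2, which is induced by blood flow, was at 82.3 FPKM in Elf4-KO colon and at 24.2 FPKM in WT colon. The Ets factor genes Elk3 and Ets2 rose 2.28-fold and 2.05-fold, and Sox7 rose 2.57-fold. In the authors' deposited table, q was 0.00453 for Elk3 and 0.00773 for Sox7. The table locus of Elk3 also covers Cdk17. Klf4, a factor of both endothelium and differentiated colon epithelium, was at 27.2 FPKM in Elf4-KO colon and at 122 FPKM in WT colon. Of 8 Notch pathway genes, 4 were listed and all 4 rose, beside 48.0% higher among all listed genes. Their rise was between 2.09-fold for Notch4, the endothelial receptor (q = 0.0336 in the authors' deposited table), and 2.50-fold for Notch2. Notch1 rose 2.34-fold and the ligand gene Dll1 2.30-fold (q = 0.000998 for Dll1 in the authors' deposited table). Ets1, Fli1, Sox17, Sox18 and Dll4 were not listed.

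Cdh5 rose while Cdh1 and Cdh17, cadherin genes of the gut epithelium, fell. Of 10 other cadherin and catenin genes, 8 were listed, 3 higher and 5 lower, beside 52.0% lower among all listed genes, with a median log2 ratio of -1.23. Cdh1, the E-cadherin gene, was at 20.8 FPKM in Elf4-KO colon and at 238 FPKM in WT colon, and Cdh17, an intestinal cadherin gene, was at 38.8 FPKM in Elf4-KO colon and at 398 FPKM in WT colon. The ratio of Cdh5 to Cdh1 was 1.895 in Elf4-KO colon and 0.0423 in WT colon. Cdh13, an atypical cadherin gene of endothelium and smooth muscle, was at 20.8 FPKM in Elf4-KO colon and at 6.95 FPKM in WT colon (q = 0.000998 in the authors' deposited table). Cdh2, the N-cadherin gene of mesenchymal and nerve cells, rose 2.83-fold, with q of 0.000694 in the authors' deposited table. Cdh3, the P-cadherin gene, was low in both genotypes, at 0.883 FPKM in Elf4-KO colon and 0.302 FPKM in WT colon, a 2.93-fold rise (q = 0.0197 in the authors' deposited table). The 3 listed genes of catenins, which join complexes at the inner part of cadherins, fell. Jup was at 20.95 FPKM in Elf4-KO colon and at 67.5 FPKM in WT colon. Ctnnd1 was at 36.2 FPKM in Elf4-KO colon and at 98.3 FPKM in WT colon (q = 0.000998 in the authors' deposited table). Ctnna1 was at 97.9 FPKM in Elf4-KO colon and at 202 FPKM in WT colon (q = 0.000694 in the authors' deposited table). Ctnnb1, the beta-catenin gene, and Cdh11 were not listed. These catenins serve cadherins in epithelium and endothelium alike, and the table locus of Ctnnd1 also covers neighbouring genes.

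Over the 10 endothelial lists together, 77 of 144 genes were listed, of which 64 rose and 13 fell. The selectin ligand list and the catenin and cadherin list each held 5 of these falls. These lists also hold genes of other cells, such as Cdh1 and Cdh17 of epithelium and Itgam of myeloid cells. Among all listed genes of the study, 48.0% rose and 52.0% fell. Selp had a larger fold than 73 of the 77 genes, the 13 that fell included, and Angpt2, Cemip and Itgam were among those with a larger one. A total of 12 genes had a larger fold than Lyve1 and 13 a larger fold than Cdh5.

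Markers of other cell types that make these 3 genes, or that lie beside vessels, moved as well. Their counts stand beside 48.0% higher and 52.0% lower among all listed genes. P-selectin is also a platelet protein, and 4 of 13 platelet and megakaryocyte genes were listed, all higher, with a summed 481 FPKM in Elf4-KO colon and 42.4 FPKM in WT colon. Pf4 was at 412 FPKM in Elf4-KO colon and at 33.7 FPKM in WT colon, and Ppbp at 40.1 FPKM in Elf4-KO colon and at 0.584 FPKM in WT colon. Itgb3 rose 3.71-fold and Itga2b 3.07-fold (q = 0.00792 for Itga2b in the authors' deposited table). The platelet receptor genes Gp1ba, Gp1bb, Gp5, Gp6 and Gp9 and the genes Treml1, Tubb1 and Clec1b were not listed. The part of platelet RNA in the Selp value was not tested.

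Of 15 resident macrophage genes, 5 were listed, 4 higher and 1 lower, with a summed 224 FPKM in Elf4-KO colon and 55.7 FPKM in WT colon. Mrc1 was at 77.2 FPKM in Elf4-KO colon and at 14.4 FPKM in WT colon, Cd163 at 43.5 FPKM in Elf4-KO colon and at 5.34 FPKM in WT colon, and F13a1 at 55.5 FPKM in Elf4-KO colon and at 9.53 FPKM in WT colon. Timd4 was at 1.45 FPKM in Elf4-KO colon and at 4.18 FPKM in WT colon (q = 0.00288 in the authors' deposited table). Folr2, Csf1r, Adgre1, C1qa, C1qb and C1qc were not listed. Mrc1, Cd163 and F13a1 had larger folds than Lyve1, and the part of macrophage RNA in the Lyve1 value was not tested.

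Pericytes wrap small vessels, and 6 of 8 pericyte genes were listed and all rose, with a summed 488 FPKM in Elf4-KO colon and 139 FPKM in WT colon. The potassium channel genes Kcnj8 and Abcc9 rose 5.84-fold and 4.83-fold, and the growth factor receptor gene Pdgfrb 3.55-fold. All 4 listed of 8 red blood cell genes rose, with a summed 287 FPKM in Elf4-KO colon and 64.2 FPKM in WT colon. Hbb-bs rose 4.60-fold, Hba-a1 4.20-fold, Hba-a2 5.49-fold (q = 0.0141 in the authors' deposited table) and Hbb-bt 4.46-fold (q = 0.000998 in the authors' deposited table), and reads of these near-identical copies may be split unevenly. All 6 listed of 9 fibroblast genes rose, with a median log2 ratio of 1.32, led by Dcn at 2778 FPKM in Elf4-KO colon and 533 FPKM in WT colon, with Pdgfra at 100.4 FPKM in Elf4-KO colon and 35.3 FPKM in WT colon and Col3a1 at 1006 FPKM in Elf4-KO colon and 377 FPKM in WT colon (q = 0.00773 for Col3a1 in the authors' deposited table). None of 9 smooth muscle genes was listed. Of 10 neutrophil genes 9 were listed, 7 higher and 2 lower, with Mmp8, Ngp and Retnlg rising 54.0-fold, 108-fold and 24.5-fold (q = 0.000998 for Ngp in the authors' deposited table). The WT levels of Mmp8 and Ngp were low, at 1.74 and 0.357 FPKM, so these folds rest on small WT values. The genes that fell were the marker Ly6g, at 145.7 FPKM in Elf4-KO colon and 854 FPKM in WT colon, and Ltf, at 2.05 FPKM in Elf4-KO colon and 14.4 FPKM in WT colon, both named after their values were seen. All 10 epithelial genes fell, the largest falls being those of Krt19, Krt8 and Elf3, at 86.3, 144 and 18.0 FPKM in Elf4-KO colon, against 1672, 2335 and 234.8 FPKM in WT colon, with a neighbouring gene inside the table locus of Elf3. The part of these marker differences in the values of Selp, Lyve1 and Cdh5 was not tested.

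**Figure D4:**
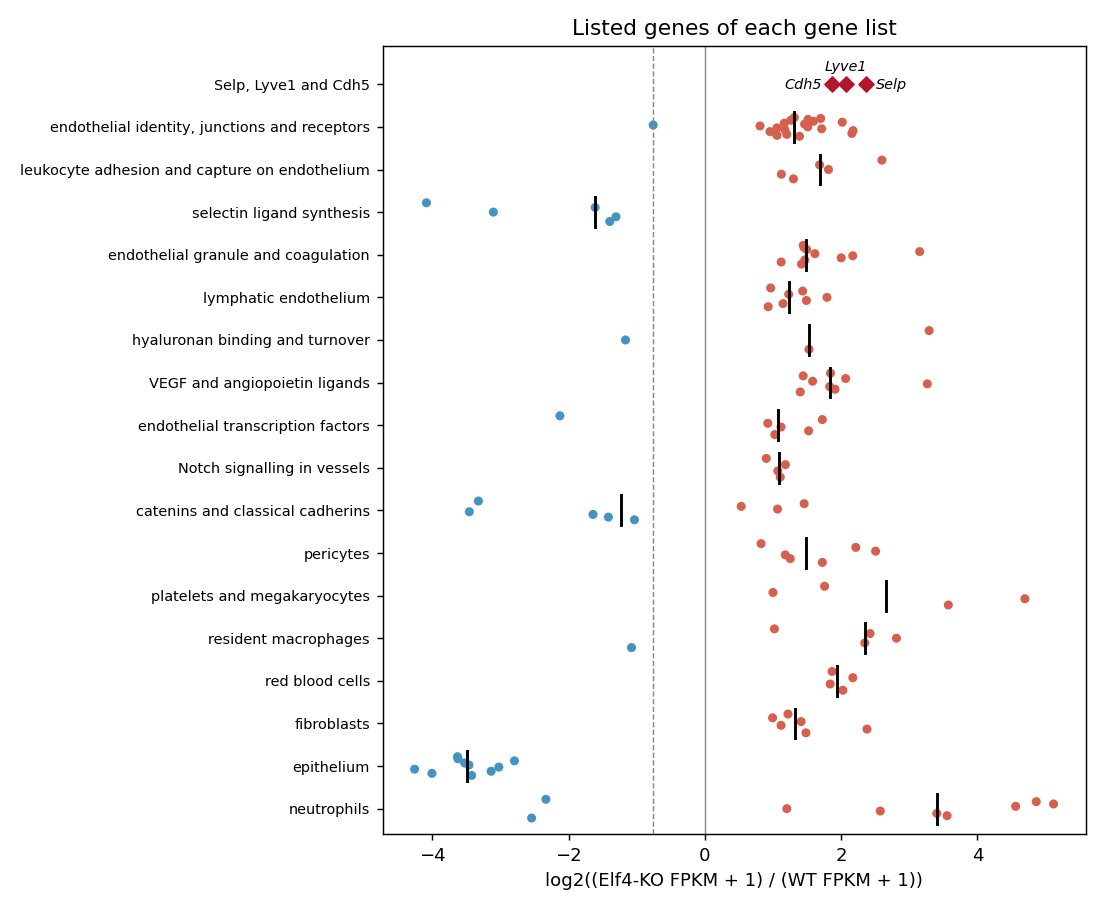
Each point is a listed gene placed by log2((Elf4-KO FPKM + 1) / (WT FPKM + 1)), red where higher and blue where lower in Elf4-KO colon. Black bars give each list's median, the dashed line the median of all 4121 listed genes at -0.76, and the diamonds Selp (2.36), Lyve1 (2.07) and Cdh5 (1.86). The endothelial identity and lymphatic lists have medians of 1.31 and 1.23, and the epithelial list has -3.50.

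The listed genes with values nearest to each of the 3, by distance on log2(FPKM + 1) over both genotypes, were not endothelial markers of the lists. Nearest to Selp were C5ar1, a complement receptor gene of myeloid cells (61.0 FPKM in Elf4-KO colon and 11.7 FPKM in WT colon), Epn2 and Slit3. Nearest to Lyve1 were Hba-a1 (97.8 FPKM in Elf4-KO colon and 23.3 FPKM in WT colon), Smim3 and Clmp. Nearest to Cdh5 were Chl1, a neural adhesion gene (38.5 FPKM in Elf4-KO colon and 10.2 FPKM in WT colon), Phyhd1 (q = 0.0331 in the authors' deposited table) and Gpnmb. With 2 values per gene, likeness of this kind is shared by genes of many cell types.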

How the data were processed

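RNA was sequenced from distal colon of DSS-treated mice, with 2 Elf4-KO and 2 WT samples. Trizol extraction and a Vazyme mRNA-seq kit were used, per the labels' protocols. Per the submitters' processing notes, the tools were Bowtie 0.12.2 and Cufflinks 2.2.1 and the build mm8, with no role stated. Per the file headers, the deposited table gives 1 FPKM value per genotype, in which the authors combined both samples by a step not given in the sources used here, and the p-value and q-value of the authors' own comparison. Depth is unknown.

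Coordinates were compared with GENCODE M21 on GRCm38. Of 4121 identifiers 4116 were found, all on the annotated chromosome and 4115 overlapping the annotated gene, so the table's coordinates are treated as GRCm38 and printed counting from 1, although mm8 is named. Among the 4116, 454 (11.0%) had a table locus at least 1.5 times as long as the gene.

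Folds were computed from FPKM, and log2 ratios after adding 1 to both values, which understates changes of low genes. No test between genotypes was possible, and the authors' call was used. The 18 gene lists hold 226 genes, 10 lists endothelial and 8 for other cell types. The genes, lists and rules were chosen with earlier results of these data known. Named were every listed gene of the endothelial lists, the 3 largest changes of each other list with at least 1 FPKM (every listed gene where 5 or fewer), Elf4, and the 3 genes nearest to each of Selp, Lyve1 and Cdh5. A few genes are counted in their lists but not reported here. The calculations were tested on simulated data. Alternatives were pseudocounts of 0.1 and 0, centring on the table median, minimums of 1 and 5 FPKM, q of at most 0.01, a 4-fold limit and leaving out genes in wide shared loci. Python 3.11.15, numpy 2.4.6, pandas 2.3.3 and matplotlib 3.10.9 were used.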

Additional observations from a re-analysis of the deposited data

How the results depend on the processing

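No paired analysis was possible because each genotype has 1 combined value, and leaving out each sample could not be run for the same reason. With no replicate spread, shifts beyond 1.5 times count as moved. The log2 ratios of Selp, Lyve1 and Cdh5 with pseudocounts of 0.1 and 0 shifted by less than that. Centring on the table median of -0.76 raised them by construction to 3.12, 2.83 and 2.62. With a 4-fold limit, 533 genes were higher, of 1980, and 1011 lower, of 2141, as the limit removes genes by construction. Of 102 recomputed medians over 17 lists, 0 turned direction. A pseudocount cannot turn a gene's direction, and filters cannot turn a list whose genes all go the same way. The 0 is therefore largely fixed by construction. Centring aside, 2 of the 102 medians moved, both with at least 5 FPKM: hyaluronan genes to 2.41 (2 genes) and platelet genes to 3.57 (3 genes). Centred medians ran from -2.74 for epithelium to 4.16 for neutrophils. Of 68 recomputed counts of higher genes, 3 moved: 1 cadherin gene was left with at least 5 FPKM. Without genes in wide shared loci, an alternative chosen after the data were seen, 3 adhesion genes and 5 vessel ligand genes were left. With q of at most 0.01, 20 endothelial identity genes were still higher.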
